A study of Mus musculus with 18 samples.

Results

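Forelimb digit tips of mouse embryos lacking Fzd6 were compared with wild-type digit tips at E16.5 (E stands for embryonic day, counted from mating). The comparison takes the 6 arrays labelled for that stage, 3 from Fzd6-/- embryos (KO) and 3 from wild-type embryos (WT), out of 18 arrays in the series. The other 12 arrays are the same genotypes at E14.5 and E18.5. All embryos are labelled as C57BL/6 and as mixed sex, and came from crosses of Fzd6+/- parents. The design text describes RNA of each of 3 embryos per genotype and stage, so the 3 arrays of a group were taken as separate embryos. The mixed-sex label of each array may be at odds with single embryos, which was not settled. Fzd6 is absent in every cell of the KO embryo, and the sampled tip holds skin, nail field and the tissues beneath. In such a piece, fewer cells of a type and less RNA per cell cannot be told apart.

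Fzd6 encodes a Frizzled receptor, a membrane protein that binds Wnt ligands. It is best known for planar cell polarity in the skin, where it orients hair follicles, and loss of the human or mouse gene gives malformed nails or claws. The nail arises from the surface layer of the digit tip, which first thickens into a nail field and then forms a matrix whose cells turn into the hard plate. The sampled stages fall within the time when this field takes shape and the skin begins to cornify.

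Both dyes of an array were read: Cy3 (green) for digit-tip RNA, Cy5 (red) for one reference RNA used on every array. That reference pooled RNA of 11 cell lines with embryonic stem cell RNA. A level below is log2 of Cy3 over Cy5, and a difference is the KO mean minus the WT mean on that scale, so that a difference of 1 is 2-fold. Probes are 60 bases long and known by an ID alone, which no table used here ties to a gene. Fzd6 itself was for that reason not analysed, the genotype labels were not checked against it, and the tissue was not checked against marker genes. Probes are named below by ID and shown by sequence.

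The results turn on a few sets of probes, shown here because several probes of a set read the same stretch of RNA. The first set was higher in KO at E14.5 and E16.5, and the bases shared by the pair are in capitals.
Z00073883-1: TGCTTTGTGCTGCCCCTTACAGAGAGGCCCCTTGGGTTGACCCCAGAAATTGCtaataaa
Z00071847-1: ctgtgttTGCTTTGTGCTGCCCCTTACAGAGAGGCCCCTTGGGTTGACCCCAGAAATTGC
The next 2 pairs had high levels in WT at E16.5 and low levels in the other groups. In the first of these pairs no other group had every array well above background, so its low levels are not measured on every array.
Z00041697-1: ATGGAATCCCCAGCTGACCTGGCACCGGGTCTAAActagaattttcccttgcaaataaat
Z00075312-1: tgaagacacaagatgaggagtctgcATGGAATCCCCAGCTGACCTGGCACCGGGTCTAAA
Z00024325-1: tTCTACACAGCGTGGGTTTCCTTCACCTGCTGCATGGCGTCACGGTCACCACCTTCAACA
Z00060342-1: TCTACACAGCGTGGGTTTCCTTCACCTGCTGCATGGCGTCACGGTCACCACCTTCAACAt
The last sets were low in KO at E16.5 and high in both genotypes at E18.5, with capitals again for shared bases. Z00023905-1 overlaps 2 others and is shown with the bases it shares with Z00075199-1.
Z00075199-1: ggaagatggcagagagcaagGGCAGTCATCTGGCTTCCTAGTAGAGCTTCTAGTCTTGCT
Z00023905-1: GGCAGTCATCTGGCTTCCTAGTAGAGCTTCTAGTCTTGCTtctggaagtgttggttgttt
Z00041156-1: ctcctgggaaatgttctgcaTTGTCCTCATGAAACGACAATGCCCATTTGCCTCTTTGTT
Z00059773-1: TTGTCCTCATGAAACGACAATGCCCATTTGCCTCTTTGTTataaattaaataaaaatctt

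Of 42006 probes, 64.6% to 68.0% were well above background in Cy3 on the KO E16.5 arrays and 62.8% to 64.3% on the WT ones. The mean share was 66.2% ± 1.7 (SD, n = 3) in KO and 63.4% ± 0.77 in WT, without overlap. For the difference of 2.84 points an exact permutation test (two-sided) gave p = 0.1, which is as low as 3 arrays a side allow. A probe's 3 arrays had a median SD of 0.117 in KO and 0.162 in WT, and correlated across probes at 0.964 to 0.985 and 0.949 to 0.964. WT replicate 2 stood apart most: it exceeded both other WT arrays by 2-fold or more at 114 probes and fell short of both by as much at 139. No slide held arrays of both genotypes at this stage, so slide and genotype cannot be told apart. Replicates 1 and 2 were scanned in one batch and replicate 3 in another, and each batch held both genotypes.

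At E16.5 the KO digit tips differed from WT at 3420 of 27989 tested probes, which is 12.2% (limma, Benjamini-Hochberg adjusted p under 0.05). Of these, 1701 were higher in KO (6.08% of tested) and 1719 lower (6.14%). Of the 3420 differences, 1686 (49.3%) were under 1.5-fold. The large ones leaned to loss in KO: 432 of the probes lost 2-fold or more and 181 gained as much. At 4-fold or more 82 were lower and 19 higher, and at 8-fold or more 22 were lower and 5 higher. With the probes cut by mean signal into 3 equal classes, 132 in the brightest class lost 2-fold or more and 46 gained it, against 214 and 111 in the middle class and 86 and 24 in the dimmest.

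**Figure D1:**
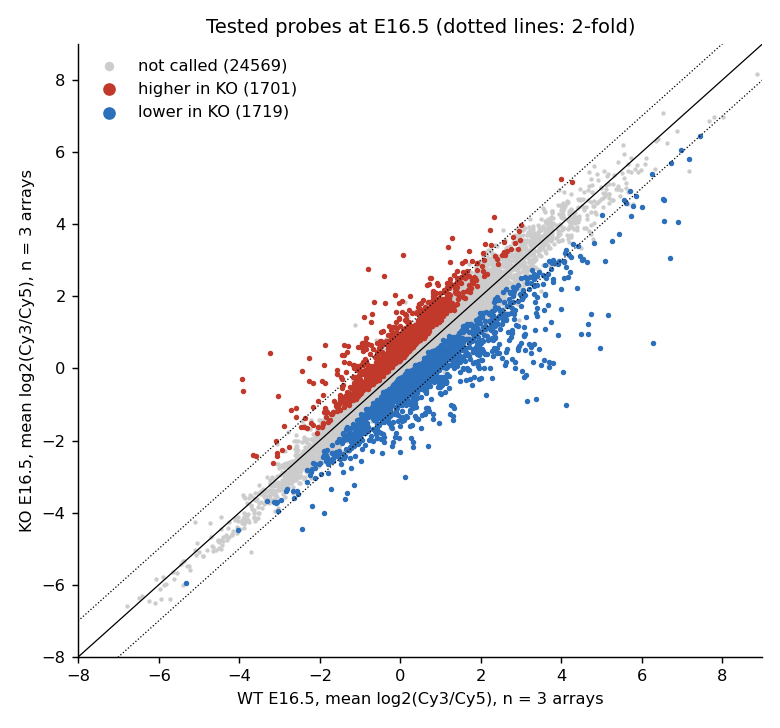
Mean log2(Cy3/Cy5) of each tested probe in WT (x axis) and KO (y axis) digit tips at E16.5, 3 arrays each. Red points are the 1701 probes called higher in KO and blue points the 1719 called lower, dotted lines mark 2-fold, and the blue points reach farther from the diagonal than the red ones.

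KO and WT arrays were fully separated at 8582 tested probes (30.7%), and at 3311 of the 3420 called. The count of calls was 2168 without KO replicate 1, 2169 without KO replicate 3 and 2148 without WT replicate 1. It was 516 with median centring in place of loess, 1785 with scaling between arrays, and 2010 when these 6 arrays were fitted alone. Probes at least 2-fold lower still outnumbered those at least 2-fold higher in each of the 3, at 202 against 130 with median centring, 274 against 99 with scaling, and 427 against 159 with the 6 arrays alone. The count of probes at least 2-fold higher was 293 without WT replicate 3. The near-even split of all calls moved too: 773 were higher and 1237 lower for the 6 arrays alone. Leaving out WT replicate 2 gave 1042 higher and 1476 lower, and leaving out WT replicate 3 turned the majority, with 2087 higher and 1697 lower. Higher probes were also the majority with Cy3 alone (2642 and 2237), the value table (1636 and 1473), scan batch as a fixed term (1820 and 1757) and slide as a random block (1810 and 1805).

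The largest falls in KO among probes measured on all 6 arrays are given next. The largest of these was that of Z00040994-1 (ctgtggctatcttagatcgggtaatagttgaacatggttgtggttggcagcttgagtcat). It measured 6.51, 5.99 and 6.32 on the WT arrays and 0.15, -0.08 and 2.08 on the KO arrays. KO replicate 3 was thus well above the other KO arrays, yet far below every WT array. The difference was -5.55 ± 0.44 (SE, n = 3 per group; limma adjusted p = 9.21e-07), and -6.24 without KO replicate 3. At E14.5 no array of either genotype had it well above background. At E18.5 it reached 7.88 ± 0.19 (SD, n = 3) in KO and 6.79 ± 0.79 in WT, a difference that did not pass (adjusted p = 0.127). It was therefore a signal that both genotypes had at E18.5. At E16.5 all 3 KO arrays had it well above background, at a far lower level than WT.

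The same order of levels held at other probes of this group. Z00026946-1 (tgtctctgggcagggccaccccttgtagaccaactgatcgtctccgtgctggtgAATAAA, with the letters of a polyadenylation signal in capitals) measured 3.87, 3.61 and 3.89 in WT at E16.5. Its KO levels were -0.16, -0.19 and 0.81, with replicate 3 again the highest. The difference was -3.63 ± 0.30 (SE; limma adjusted p = 1.24e-06). At E18.5 it stood at 5.08 ± 0.02 (SD, n = 3) in KO and 4.62 ± 0.79 in WT, and at E14.5 at -0.79 ± 0.04 and -0.88 ± 0.07. Neither of these differences passed.

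Z00041156-1 measured 2.94, 3.24 and 3.26 in WT and -1.55, -1.45 and 0.25 in KO at E16.5, a difference of -4.06 ± 0.33 (SE). Its partner Z00059773-1, which shares 40 bases with it, differed by -4.22 and was well above background on 1 of 3 KO arrays. At E18.5 Z00041156-1 stood at 4.17 ± 0.17 (SD, n = 3) in KO and 4.08 ± 0.25 in WT. Z00022890-1 (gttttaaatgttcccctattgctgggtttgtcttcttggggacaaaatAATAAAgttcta) measured 5.01, 5.26 and 5.24 in WT and 0.52, 0.60 and 3.29 in KO. Z00024515-1 (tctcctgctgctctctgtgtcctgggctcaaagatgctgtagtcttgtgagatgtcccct) measured 4.54, 4.72 and 4.77 in WT and 0.39, 0.67 and 2.61 in KO. KO replicate 3 was the highest KO array at all 3, well apart from the other two, and no KO array reached a WT array. The differences of the last pair were -3.70 and -3.45, and -4.61 and -4.15 without KO replicate 3. Smaller differences came for Z00022890-1 with processed signals (-1.80), the value table (-1.79), an offset of 0 (-2.52) and median centring (-2.67), and for Z00024515-1 with median centring (-2.80), each still called.

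Z00075199-1 and Z00023905-1, which share 40 bases, were also low in KO but replicate 3 was not set apart. Z00075199-1 measured 4.44, 3.29 and 4.38 in WT and -0.31, -0.09 and 0.14 in KO, a difference of -4.12 ± 0.50 (SE; limma adjusted p = 6.12e-05). Z00023905-1 measured 3.26, 2.79 and 3.31 in WT and -0.39, -0.23 and 0.10 in KO. Another probe of this stretch, Z00057869-1, shares 46 bases with Z00023905-1 and differed by -3.12. At E18.5 Z00075199-1 had risen to 3.83 ± 1.15 (SD, n = 3) in KO, still below the 5.57 ± 1.01 of WT (limma adjusted p = 0.0425), so its loss passed at both stages. Z00023905-1 likewise differed at E18.5, by -1.11 (adjusted p = 0.0299).

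Z00071877-1 (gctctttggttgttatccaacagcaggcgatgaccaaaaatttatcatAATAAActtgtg) measured 6.58, 6.67 and 6.88 in WT. It measured 3.09, 1.96 and 4.10 in KO, and it fell away to 0.33 ± 0.10 (SD, n = 3) in KO and 0.72 ± 0.77 in WT at E18.5. Its difference of -3.66 lost the call with Agilent's processed signals (-0.77, adjusted p = 0.734), with the deposited value table (-0.76, adjusted p = 0.691) and with a normexp offset of 0 (-1.91, adjusted p = 0.103). With scaling between arrays Z00040994-1, Z00075199-1, Z00041156-1, Z00022890-1, Z00026946-1, Z00024515-1 and Z00023905-1 kept differences of -3.74 or lower, and their adjusted p rose to 0.103 to 0.322.

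**Figure D2:**
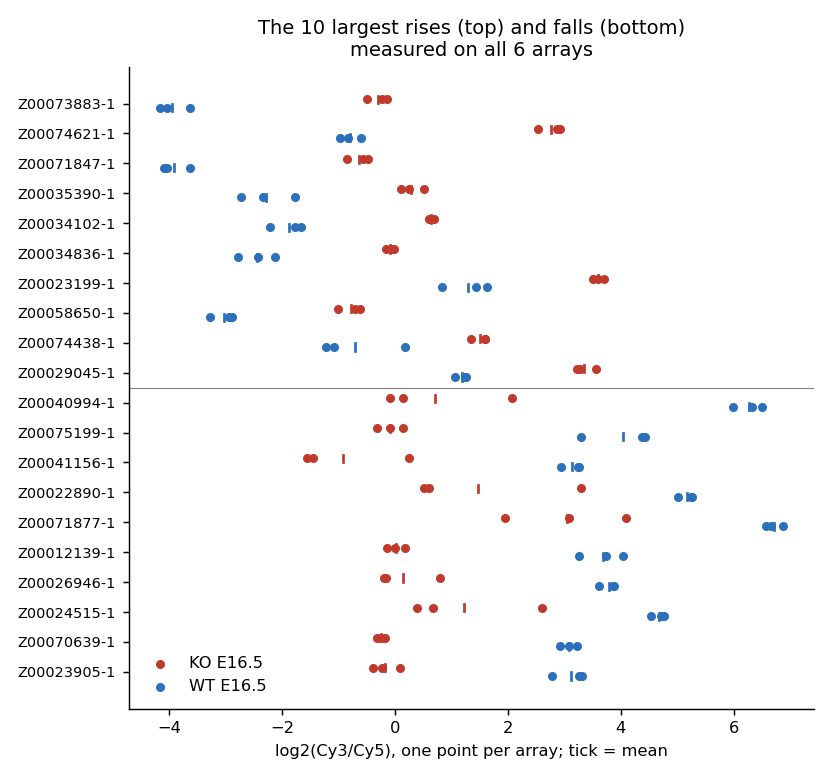
Log2(Cy3/Cy5) on each KO (red) and WT (blue) array at E16.5 for the 10 probes with the largest rises (top) and the 10 with the largest falls (bottom) among those called, measured on all 6 arrays and chosen to have no overlap between genotypes; ticks are means of 3 arrays. KO replicate 3 lies apart from the other KO arrays at Z00040994-1, Z00041156-1, Z00022890-1, Z00026946-1 and Z00024515-1.

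A small group of probes had a pulse of signal in WT at E16.5 that was missing or lower in KO. Z00046024-1 (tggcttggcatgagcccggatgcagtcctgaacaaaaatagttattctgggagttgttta) measured 4.54, 3.92 and 3.89 in WT at this stage, against 0.12 ± 0.11 (SD, n = 3) in WT at E14.5 and 0.35 ± 0.24 in WT at E18.5. The KO arrays at E16.5 measured -1.07, -0.88 and -1.08, none of them well above background. Scaled Cy3 signals put KO at least 29.8-fold lower (limma adjusted p = 1.11e-11). KO was not well above background at the other stages either, and the lower KO level passed the test there too (adjusted p = 0.000346 at E14.5 and 0.000616 at E18.5). The fitted difference at E16.5 was larger than at both.

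The pair Z00041697-1 and Z00075312-1 showed a pulse too. Z00041697-1 measured 3.82, 3.56 and 3.71 in WT at E16.5 and 0.04, 0.16 and 0.32 in KO, where 1 of 3 arrays was well above background. Z00075312-1 measured 3.36, 3.22 and 3.28 in WT and 0.05, 0.22 and 0.22 in KO. The differences were -3.52 ± 0.18 and -3.12 ± 0.17 (SE; limma adjusted p = 8.6e-09 and 1.92e-08). Both probes were tested only because all 3 WT E16.5 arrays had them well above background, which held in no other group. These p-values are therefore descriptive and add no support. In WT the E18.5 arrays were back at 0.02 ± 0.04 (SD, n = 3) and 0.19 ± 0.30, and at E14.5 neither probe was well above background on any WT array. In KO the highest single array of either probe was E14.5 replicate 2, at 1.09 and 0.81.

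The pair Z00024325-1 and Z00060342-1, shifted by 1 base, had a lower pulse. Z00024325-1 measured 1.98, 1.88 and 1.74 in WT at E16.5 and 0.23, 0.05 and 0.25 in KO, and Z00060342-1 measured 2.07, 1.91 and 1.84 against 0.22, 0.05 and 0.05. At E14.5 and E18.5 the group means of both probes lay between -0.01 and 0.18 in either genotype. Both probes were well above background on all 6 arrays at E16.5, so their differences of -1.69 ± 0.09 and -1.84 ± 0.09 (SE) are measured on both sides. Z00040026-1 (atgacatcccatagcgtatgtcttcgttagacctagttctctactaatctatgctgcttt) had a partial pulse in KO, at 0.82, 0.78 and 1.16 against 3.99, 3.93 and 3.81 in WT. Its difference of -2.99 ± 0.10 (SE; limma adjusted p = 4.1e-11) exceeded those at E14.5, by -2.90, and at E18.5, by -2.61.

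Other probes were lower in KO at every stage sampled, and their E16.5 loss belongs to a standing difference between the genotypes. Z00070639-1 (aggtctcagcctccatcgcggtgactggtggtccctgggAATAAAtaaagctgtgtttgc) measured 3.08, 2.93 and 3.23 in WT and -0.24, -0.17 and -0.32 in KO. Its difference was -3.33 at E16.5, -3.74 at E14.5 and -3.22 at E18.5. Z00012139-1 (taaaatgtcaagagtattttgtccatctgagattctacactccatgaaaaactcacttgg) measured 3.74, 3.27 and 4.05 in WT and 0.19, -0.13 and 0.01 in KO. It differed by -3.66 at this stage, by -3.08 at E14.5 and by -3.23 at E18.5.

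Z00074193-1 (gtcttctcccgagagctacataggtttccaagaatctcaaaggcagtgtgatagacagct) measured -0.12, 0.02 and 0.47 in WT and -3.10, -2.76 and -3.17 in KO, where 1 of 3 arrays was well above background. Its difference of -3.13 ± 0.15 (SE) stood beside -3.50 at E14.5 and -3.06 at E18.5. Z00057348-1 (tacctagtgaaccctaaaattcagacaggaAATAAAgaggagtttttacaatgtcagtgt) measured 3.11, 3.90 and 3.51 in WT at E16.5, while no KO array had it well above background (limma adjusted p = 1.4e-05). For none of these 4 did the E16.5 difference pass the test against the E14.5 or E18.5 difference.

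The largest rises in KO were also mostly present at other stages. The pair Z00073883-1 and Z00071847-1 was the extreme case and read the same stretch over 53 bases. Z00073883-1 measured -0.23, -0.50 and -0.14 in KO and -4.16, -3.62 and -4.04 in WT, a difference of 3.65 ± 0.48 (SE; limma adjusted p = 0.000125). Z00071847-1 differed by 3.28. Both were well above background on all 6 arrays, although their WT levels were far below the reference. In WT the level of Z00073883-1 was -4.78 ± 0.28 (SD, n = 3) at E14.5 and 1.82 ± 1.54 at E18.5, and in KO it was -0.61 ± 0.12 and 3.07 ± 0.18. The difference of 1.25 at E18.5 did not pass (adjusted p = 0.112).

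Z00074621-1 (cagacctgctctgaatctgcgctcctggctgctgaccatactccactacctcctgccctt) measured 2.53, 2.87 and 2.92 in KO and -0.97, -0.59 and -0.83 in WT. Its difference of 3.57 ± 0.28 (SE; limma adjusted p = 9.71e-07) was larger than those at E14.5 and E18.5, which were 1.30 and 2.11 and also passed. Z00035390-1, Z00034102-1 and Z00029045-1 were higher in KO by about the same amount throughout. Their differences at E16.5 were 2.57, 2.52 and 2.16, at E14.5 2.55, 2.45 and 1.82, and at E18.5 2.02, 1.71 and 1.89. Z00074438-1 and Z00034836-1 were higher in KO at E14.5 and at E16.5, by 2.22 and 2.37 at the latter. At E18.5 the difference of Z00034836-1 was 0.76, and that of Z00074438-1, 0.49, did not pass (adjusted p = 0.229). For both the difference between these stages passed the test, by 1.72 and 1.61.

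Z00023199-1 (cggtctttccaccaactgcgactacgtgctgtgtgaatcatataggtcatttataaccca) declined with stage in both genotypes, from 3.62 ± 0.14 (SD, n = 3) at E14.5 to 0.74 ± 0.51 at E18.5 in WT. At E16.5 it measured 3.60, 3.71 and 3.51 in KO and 1.63, 0.83 and 1.43 in WT, so the KO arrays were near the E14.5 level of WT. With Agilent's processed signals its difference of 2.31 was 1.1. Z00058650-1 was higher in KO by 2.26 at E16.5, by 1.07 at E14.5 and by 0.91 at E18.5, and lost its call at E16.5 with scaling between arrays (2.83, adjusted p = 0.0507).

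Some probes were detected in one genotype alone. Well above background on all 3 KO arrays and on no WT array were 356 probes, of which 70 were called higher. The reverse held for 119 probes, of which 60 were called lower. Over all tested probes 6.08% were called higher and 6.14% lower. Detection in 1 genotype alone already favours a difference in that direction, so these counts describe and do not add support. Where a genotype had no array well above background, the fold is a lower bound from Cy3 signals scaled between arrays, and it is open to dye bias because the dyes were not swapped. A bound above the fold of the fitted ratios is not given.

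Z00040594-1 (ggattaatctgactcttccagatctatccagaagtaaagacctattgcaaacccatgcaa) led the probes detected in KO alone. It measured 3.20, 3.02 and 3.22 in KO and 0.06, 0.02 and 0.10 in WT, at least 7.65-fold higher (limma adjusted p = 8.34e-12). In KO it built up from 0.33 ± 0.14 (SD, n = 3) at E14.5 to 3.15 ± 0.11 at E16.5 and 4.34 ± 0.04 at E18.5. In WT it stayed at -0.02 ± 0.03, 0.06 ± 0.04 and 0.18 ± 0.11. The E16.5 difference thus exceeded the one at E14.5 by 2.74 and fell short of the one at E18.5 by 1.08, both past the test.

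Z00042912-1 measured 3.50, 2.28 and 1.88 in KO, at least 7.79-fold above WT, and Z00034001-1 measured 1.64, 1.73 and 2.10, at least 4.48-fold above. Both were higher in KO at all 3 stages. Z00076669-1 measured 2.41, 1.23 and 0.62 in KO (limma adjusted p = 0.0175), and its arrays spread widely. Its call was lost with median centring (adjusted p = 0.0521), in the first scan batch alone (0.108), without KO replicate 1 (0.0914) and without WT replicate 1 (0.0694). Z00027410-1, at 1.21, 1.43 and 1.53 in KO and at least 2.37-fold above WT, missed the threshold in the first scan batch alone (adjusted p = 0.0675).

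Of the probes detected in WT alone, Z00063823-1 measured 2.59, 1.80 and 2.41 in WT (limma adjusted p = 0.0027). In WT at E14.5 it was high on 1 array only, at 1.71 against -0.29 and -0.25. Z00062996-1 measured 2.29, 0.93 and 1.93 in WT (limma adjusted p = 0.00202), and it was lower in KO at E14.5 and E18.5 too (limma adjusted p = 0.000768 and 0.0181). Its call was lost in the first scan batch alone (adjusted p = 0.0962). Z00074723-1 measured 2.14, 0.87 and 0.90 in WT, with KO at least 2.11-fold lower. It lost its call with a normexp offset of 0 (adjusted p = 0.0911), with median centring (0.0563), with the 6 arrays alone (0.0813) and in the first scan batch alone (0.0583). Z00063823-1 and Z00074723-1 were tested only because all WT E16.5 arrays had them well above background, so their p-values add no support.

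By adjusted p, the firmest rises beside Z00040594-1 were moderate in size and tight between arrays. Z00074311-1 (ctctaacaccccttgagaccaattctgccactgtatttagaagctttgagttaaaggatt) measured 1.82, 1.81 and 1.81 in KO and 0.09, -0.05 and -0.14 in WT, a difference of 1.85 ± 0.08 (SE; limma adjusted p = 1.5e-09). It climbed with stage in both genotypes, and KO was ahead by 1.26 at E14.5 and by 0.43 at E18.5. With scaling between arrays its adjusted p was 0.374. Z00029657-1 (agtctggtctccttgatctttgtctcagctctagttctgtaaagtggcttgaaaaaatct) measured 1.57, 1.44 and 1.66 in KO and -0.25, -0.13 and 0.05 in WT. It was higher in KO by 1.67 at E16.5, by 1.64 at E14.5 and by 1.16 at E18.5.

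Among probes at least 2-fold apart at E16.5 and called at neither other stage, 53 were higher in KO and 218 lower, and 4 of the higher ones are described here. Z00034505-1 (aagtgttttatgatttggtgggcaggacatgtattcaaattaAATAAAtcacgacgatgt) measured 0.54, 0.13 and 0.43 in KO and -1.20, -1.42 and -1.55 in WT. In WT it was lower at E16.5 than at the stages on either side, at 0.58 ± 0.03 (SD, n = 3) at E14.5 and 0.18 ± 0.26 at E18.5. The KO means were 0.43, 0.37 and 0.47 from E14.5 to E18.5. The difference of 1.76 ± 0.13 (SE; limma adjusted p = 4e-07) thus belonged to a dip in WT that KO did not show.

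Z00018024-1 (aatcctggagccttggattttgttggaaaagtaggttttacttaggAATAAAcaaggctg) had the opposite shape, a peak in KO. It measured 1.93, 2.49 and 1.97 in KO at E16.5, against 0.40 ± 0.27 (SD, n = 3) and 0.44 ± 0.07 in KO at E14.5 and E18.5, and 1.05, 0.91 and 0.53 in WT at E16.5. Z00022924-1 and Z00041516-1 fell in WT from E14.5 to E16.5, with log2 changes of -0.96 and -1.95. In KO Z00041516-1 fell by 1.05 over the same days (limma adjusted p = 0.000776), while the change of Z00022924-1, 0.38, did not pass (adjusted p = 0.0683). Z00022924-1 measured 0.94, 0.88 and 1.12 in KO and -0.14, -0.23 and -0.09 in WT, and its call was lost with scaling between arrays (adjusted p = 0.0862). Z00041516-1 measured 0.88, 0.52 and 0.92 in KO and -0.87, -0.45 and -0.09 in WT. The differences of these 3 were 1.30, 1.13 and 1.24.

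**Figure D3:**
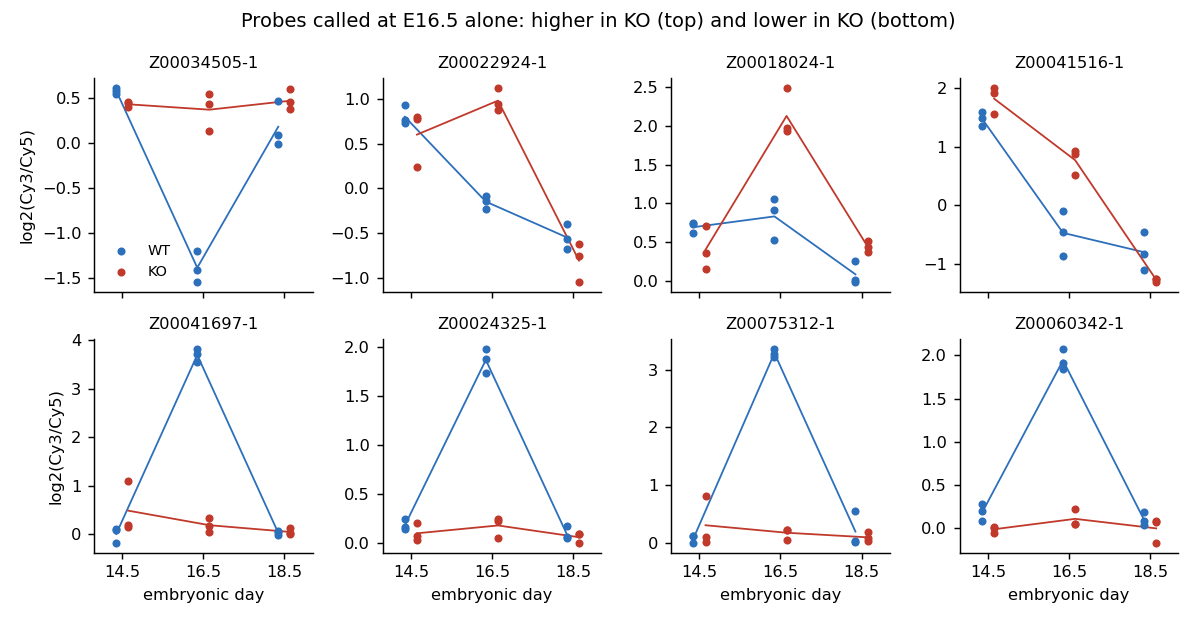
Log2(Cy3/Cy5) by embryonic day in KO (red) and WT (blue) for the 4 probes higher in KO (top) and the 4 lower in KO (bottom) that were called at E16.5 and at neither other stage; points are single arrays, lines join means of 3, and y axes differ between panels. The lower probes have their highest level in WT at E16.5 and lie near 0 in most other groups, while the higher ones show a WT dip (Z00034505-1), a KO peak (Z00018024-1) or a fall in WT from E14.5 to E16.5 that was smaller (Z00041516-1) or not called (Z00022924-1) in KO.

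The whole sets of large differences were then followed to the other stages, whose arrays are not those that chose the members. The spread of each probe was estimated from all 18 arrays, so the stages are not wholly independent. Of the 181 probes at least 2-fold higher in KO at E16.5, 104 (57.5%) were also called higher at E14.5, where 3.72% of tested probes were, and 88 (48.6%) at E18.5, against 5.72% of tested. In the opposite direction 3 were called at E14.5 and 2 at E18.5. Of the 432 probes at least 2-fold lower, 142 (32.9%) were also called lower at E14.5, against 5.22% of tested probes. At E18.5, 110 (25.5%) were lower, against 3.13% of tested, and 52 (12%) were higher, against 5.72%. At neither other stage were 218 of the 432 called (50.5%), and 53 of the 181 (29.3%).

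The median over the 432 probes shows their course, measured from the WT E14.5 mean of each probe. The WT arrays stood at 1.79 to 2.13 at E16.5 and at 1.32 to 1.71 at E18.5. The KO arrays stood at -0.33 to -0.21 at E14.5, at 0.27 to 0.48 at E16.5 and at 1.45 to 1.74 at E18.5. The median KO array of these probes was thus about level with WT at E18.5. The E16.5 gap itself chose the probes and is a description. The median difference at E18.5 was -0.11, and it ran from -1.01 with scaling between arrays to 0.10 with median centring, so its sign depended on the processing. At E14.5 it was -0.26, and it lay below 0 under each setting tried.

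For the 181 probes at least 2-fold higher, the KO medians were 0.79 to 0.81 at E14.5, 0.82 to 0.98 at E16.5 and 0.69 to 0.73 at E18.5. The WT arrays stood at -0.47 to -0.24 at E16.5 and at -0.13 to 0.05 at E18.5. From the earliest stage to the latest, the median differences were 0.80, 1.25 and 0.68. On these medians the higher probes were offset at E14.5 and E18.5 too, while the E18.5 gap of the lower probes depended on the processing. The gap at E16.5 chose both sets, so its being the largest of the 3 was built in.

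**Figure D4:**
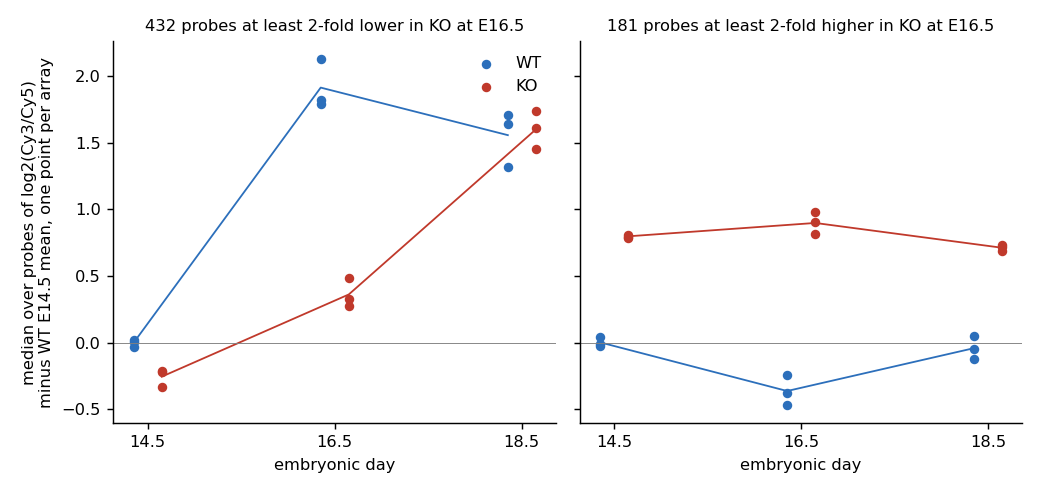
Median log2(Cy3/Cy5) over the 432 probes at least 2-fold lower (left) and the 181 at least 2-fold higher (right) in KO at E16.5, minus each probe's WT E14.5 mean, against embryonic day; one point per array, lines join means of 3 arrays of WT (blue) and KO (red). On the left KO stays at 0.27 to 0.48 at E16.5, below WT at 1.79 to 2.13, and both are between 1.32 and 1.74 at E18.5; the gap at E16.5 is how the probes were chosen.

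The wild-type change from E14.5 to E18.5, which uses no E16.5 array, gives the direction in which each of these probes normally moves. Of the 432 lower probes, 315 (72.9%) rose in WT between these stages and 28 fell. Of all tested probes 18.9% rose and 25.2% fell. Of the 181 higher probes, 34 rose and 55 (30.4%) fell. Among the 218 lower probes called at no other stage 184 (84.4%) rose, and among the 53 such higher probes 29 (54.7%) fell. The last pair of sets was selected partly on the E14.5 and E18.5 arrays, so their shares are not independent of that choice.

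Whether the genotype difference at E16.5 was itself unlike that at another stage was tested probe by probe. Against E14.5, 447 probes passed (1.6% of tested), and against E18.5, 1727 (6.17%). Among the 1719 probes lower in KO at E16.5, 216 (12.6%) passed against E14.5 and 677 (39.4%) against E18.5. Among the 1701 higher, 86 (5.06%) and 334 (19.6%) passed. Both tests were passed by 178 lower and 43 higher probes. The E16.5 difference chose these probes and is part of both tests, so their passing was favoured by the choice. The number passing both among all tested probes was not counted. The first count was 254 without KO replicate 1 and 278 without KO replicate 3, and the second was 1114 without KO replicate 2 and 1002 without WT replicate 1.

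The split against E18.5 depended on the scaling. In the fit used here 71.6% of the 1727 had the more negative difference at E16.5. This share was 36.7% with Agilent's processed signals, 50% with the deposited value table, 46.4% with Cy3 alone, 59.4% without background subtraction and 99.3% with median centring. With the processed signals more of the higher than of the lower probes passed against E18.5, at 39.1% and 29.6%. The larger share among lower probes is therefore not given as a finding. Against E14.5 the share was larger among lower probes under each setting tried, at 8.08% to 22.6% of lower and 2.18% to 9.27% of higher probes. This share is a description too, because the E16.5 difference chose the probes and is part of the test. More of the lower probes also had large E16.5 differences, with 432 at 2-fold or more against 181 higher ones.

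The reference channel should be the same on every array, so it was fitted by itself as a background measure. Scaled alone, Cy5 differed between the KO and WT arrays of E16.5 at 88 probes (0.314% of tested), of which 84 were lower on the KO arrays. Of the 88, 87 had the same sign in Cy3, and 61.4% were in the brightest of the 3 signal classes. Their median difference was -1.48 in Cy5, -2.09 in Cy3 and -1.05 in the ratio. Among them 61 were called in the ratio as well, 58 lower and 3 higher. Without the 88, 3359 of the 3420 calls and 386 of the 432 probes at least 2-fold lower remained.

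Of the 42 probes named here, 5 were called in Cy5: Z00022890-1 (-3.18), Z00071877-1 (-2.51), Z00024515-1 (-2.08), Z00041156-1 (-1.66) and Z00023905-1 (-1.42). All 5 are among the 10 largest falls measured on all 6 arrays. Their Cy3 differences were -5.99, -5.51, -5.02, -5.19 and -4.28, larger in size than those in Cy5, and the ratio nets one against the other. The part of the reference signal in these values was not tested. Z00040994-1 and Z00046024-1 each differed by -0.32 in Cy5, against -5.38 and -4.97 in Cy3. Z00074621-1 differed by 0.35 in Cy5, against 3.56 in Cy3. Over all tested probes the differences had an SD of 0.18 in Cy5 and 0.43 in Cy3.

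**Figure D5:**
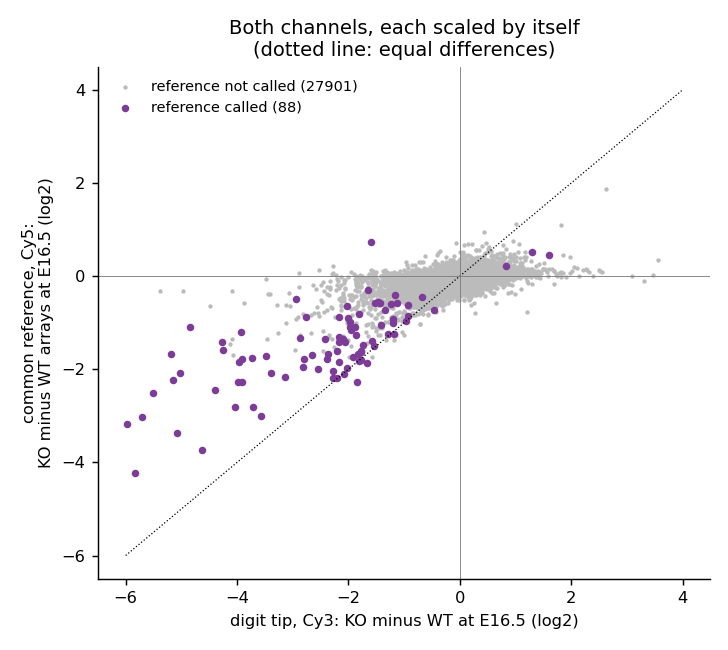
KO minus WT difference at E16.5 of each tested probe in the digit-tip channel Cy3 (x axis) and in the common reference channel Cy5 (y axis), each scaled by itself, in log2 units. The 88 probes called in the reference (purple) lie mostly at the lower left, with Cy3 differences larger than their Cy5 differences, and the remaining probes (grey) lie closer to 0 in Cy5 than in Cy3.

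Overlapping probes give a check within the array. Counting probes that share a run of at least 25 bases, 841 pairs of tested probes came from 1472 probes. Both partners were called in 133 pairs, in the same direction in all 133. In 32 pairs 1 partner was called, and in 29 of these the other had the same sign. Within the 133 pairs with both partners called, the median gap between partners' differences was 0.06 on the log2 scale and the largest was 1.14. Partners share their array and most of their target, so they are repeat readings and not replicates.

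The composition of the probes was described without a test. The median GC content was 45.0% over all tested probes, 43.3% for those higher in KO and 45.0% for those lower. The letters of the polyadenylation signal, AATAAA, searched on the printed strand, was present in 7.69% of tested probes, 10.6% of higher and 8.32% of lower ones. Among probes at least 2-fold apart it was present in 11.0% of higher and 11.6% of lower ones. A match of these letters does not place a probe on a transcript.

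A further 255 probes could be placed near 1 annotated gene start each, because at least 25 of their bases matched the same strand from 250 bases before to 50 after it in RefSeq's GRCm38.p6. With 1 chromosome left out of the count, 129 of these were tested and 8 were called (6.20%, against 12.2% of all tested probes). A match gives a position and not the transcript that was measured, least of all where the probe lies before the start. None of the 129 placed probes belonged to the gene lists drawn up for nail, skin, Wnt signalling and marker genes.

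The largest of the 8 differences were near Ebf1 and Atg3. Z00068752-1 lies on chr11:44617856-44617915, plus strand, before the start of Ebf1, which encodes a transcription factor known from B cells and fat cells.
Z00068752-1: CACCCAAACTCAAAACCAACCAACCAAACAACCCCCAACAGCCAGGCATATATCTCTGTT
Its KO mean was 1.81 and its WT mean 0.52, a difference of 1.29 ± 0.26 (SE, n = 3 per group; limma adjusted p = 0.0046). Z00067713-1 lies on chr16:45158742-45158801, plus strand, before the start of Atg3, which encodes an enzyme of autophagosome formation.
Z00067713-1: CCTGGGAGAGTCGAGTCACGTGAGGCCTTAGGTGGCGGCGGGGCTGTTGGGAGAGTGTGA
Its KO mean was 1.36 and its WT mean 2.63, a difference of -1.27 ± 0.23 (SE; limma adjusted p = 0.00208). In both sequences all 60 bases matched and stand in capitals. The others were smaller: Pitpnm2 (-0.66), Tor1aip2 (-0.70), Crxos (-0.52), Tmem95 (-0.42), Gm52042 (0.41) and Slc25a5 (-0.26). Probes placed on the transcribed side of the start were those for Pitpnm2, Crxos and Slc25a5, the last a carrier that exchanges ATP and ADP across the inner mitochondrial membrane.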

How the data were processed

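RNA was measured in digit tips with 2-colour Agilent arrays, and the arrays of KO and WT at E16.5 were compared within a fit of all 18 arrays in 6 groups. The deposited scanner files hold spot intensities from Agilent Feature Extraction 9.5.1.1, per the file headers, with mean and local background intensity for each channel, background-subtracted and dye-normalized processed intensities, and a log10 ratio. The value table deposited by the authors, for 25030 probes, has no stated scale. Set against the scanner values it equalled the log10 ratio of sample over reference plus a constant per probe, whose origin is unknown, and its column medians were 2.44 to 2.48. How probe names relate to genes is not given in the sources used here.

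Background was corrected by normexp with an offset of 50 (limma 3.58.1 in R 4.3.3), which compresses differences of dim probes, and each array was normalized by loess. Control and outlier spots were left out and spots of a probe averaged. Tested were probes whose Cy3 signal stood well above background on every array of 1 or more groups, with at least 2 values per group. One mean per group was fitted with lmFit and eBayes, with p-values adjusted by Benjamini-Hochberg, two-sided, at 0.05. The number of arrays limits the precision, and Cy3 had no saturated spot.

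The members, gene lists and tests were chosen with earlier results of these data known. Named probes were the 10 largest rises and falls among called probes without overlap and measured on all 6 arrays, up to 5 per direction detected in 1 genotype alone, ranked by its mean, and the 4 per direction called by 2-fold at E16.5 and at no other stage with the smallest p of the E16.5 difference minus the mean of the others. The 3 per direction with the smallest adjusted p completed them. Gene lists could not be paired with probe IDs and were not counted. The steps were tested on simulated data. The 3 same-numbered KO and WT arrays deviated together (r = 0.287, 0.508 and 0.434), by replicate numbers taken from the labels. The reported fit has no term for replicate number, so its p-values and SE leave this pairing out. A fit with the replicate block was run as an alternative.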

Additional observations from a re-analysis of the deposited data

Results flagged for a closer look

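The genotype difference at E16.5 was set against that at the other stages by a test of the difference itself (limma, adjusted p under 0.05), and 447 probes passed against E14.5 and 1727 against E18.5. Values below are the E16.5 difference minus that of the other stage, in log2, and they are fitted values where a group was not above background. The named probes were all picked from those called at E16.5, many by the size or adjusted p of that difference. That difference is part of both tests, so the passing of named probes, here and above, was favoured by the choice and adds no support.

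Among named probes lower in KO, the difference at E16.5 was more negative than at both other stages for Z00040994-1 (-5.51 against E14.5 and -6.65 against E18.5), Z00041156-1 (-3.94 and -4.14), Z00022890-1 (-3.56 and -3.69) and Z00071877-1 (-3.62 and -3.27). The same held for Z00026946-1 (-3.72 and -4.09), Z00024515-1 (-3.56 and -3.59), Z00023905-1 (-3.13 and -2.19) and Z00046024-1 (-4.07 and -4.09). The pairs of overlapping probes gave like values, with Z00041697-1 at -4.0 and -3.54, Z00075312-1 at -3.36 and -3.02, Z00024325-1 at -1.61 and -1.66, and Z00060342-1 at -1.64 and -1.73. These pairs were picked by the smallest p of the E16.5 difference minus the mean of the other stages' differences. Their passing was favoured by that choice and adds no support. Z00040026-1 stood at -2.90 and -2.61. Z00075199-1 passed against E14.5 alone (-3.93).

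Among named probes higher in KO, the difference at E16.5 was larger than at both other stages for Z00074621-1 (2.27 against E14.5 and 1.46 against E18.5), Z00034505-1 (1.91 and 1.47), Z00022924-1 (1.33 and 1.39), Z00018024-1 (1.60 and 0.94) and Z00074311-1 (0.59 and 1.42). Z00023199-1 passed against E14.5 alone (1.44). Against E18.5 alone passed Z00073883-1 (2.40), Z00034836-1 (1.61), Z00058650-1 (1.35), Z00074438-1 (1.72), Z00041516-1 (1.72) and Z00029657-1 (0.50). Z00040594-1 exceeded its E14.5 difference by 2.74 and stood at -1.08 against E18.5, since its gap widened with stage. Z00034505-1, Z00022924-1, Z00018024-1 and Z00041516-1 were picked in the same way as the pairs above, so their passing adds no support either.

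In the common reference channel, which no comparison between genotypes should move, 88 probes differed between KO and WT arrays of E16.5. The cause was not tested.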

How the results depend on the processing

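Across 22 other settings 27 of the 42 named probes kept direction and call, 15 lost the call under at least 1 setting and 0 reversed, while 30 moved by over 1.5-fold under some setting. Scaling between arrays ended most of these calls (10 probes). The count of 3420 was 5245 without background subtraction, 516 with median centring, 1785 with scaling between arrays, 2010 with the 6 arrays alone, 1822 in the first scan batch, and 2148 to 3784 with 1 array left out. The value table held 28 of the 42, and 29 passed the filter on all 6 arrays. The direction was kept by at least 98.6% of the called probes that each setting could test. In the second batch 98.4% of the 1822 kept their direction, as did 75% of all tested probes. The 181 probes at least 2-fold higher became 551 with processed signals, 311 with an offset of 0, 789 with Cy3 alone, 99 with scaling, 347 with the value table and 154 to 293 with 1 array left out. The 432 lower became 873 with processed signals, 202 with median centring, 1094 with Cy3 alone, 274 with scaling and 359 to 468 with 1 array left out. The 447 differing from E14.5 became 1210 without background subtraction, 216 with an offset of 0, 53 with median centring, 1141 with Cy3 alone, 215 with scaling, 142 in the first batch and 254 to 455 with 1 array left out. The 1727 differing from E18.5 became 3401, 993, 138, 3185, 628, 568 and 1002 to 1910 in the same order. The cause of these shifts was not tested, beyond the fewer arrays of the first batch and the left-out fits. With the replicate block, 3240 probes were called within stage and 4067 with the 6 arrays alone, 2844 and 2803 of them shared with the 3420, and the block ended no call of a named probe. Slide could not be fitted as a fixed term, and slide as a random block gave 3615. Signal over background limits the probes with no array above it to bounds.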
